A study of Mus musculus with 10 samples.

Results

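The genes described here serve mitochondrial exchange, protein import and shape. They were chosen by name: the array's platform annotation had to give a probe a single gene symbol that starts with Slc25a, Timm, Tomm, Vdac, Mfn or Mtfr, or that equals Opa1, Dnm1l, Fis1, Mff, Immt, Pink1 or Oxa1l. This found 64 genes of the 13840 named by the annotation, on 68 probes, and for each gene the probe with the highest mean log2 intensity over the 10 arrays was used. The 64 comprise 34 carriers of the Slc25a family, 3 outer membrane channels, 16 genes of import and membrane insertion and 10 genes of fusion, fission, cristae and quality control. The remaining gene, Mfng, was taken in by the prefix alone, since it encodes a fringe glycosyltransferase of the secretory pathway and no mitochondrial protein.

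Their transcripts were read on 10 one-colour Applied Biosystems arrays: 5 carried RNA of adult C57/B6 mouse retina and 5 carried RNA of mouse cortex from postnatal day 1, untreated as far as the labels say. The retina RNA was a pool from 350 mice and the cortex RNA a pool from 19 mice, described as C57/B6 in the sample records and as Swiss-Webster in the series text. The retina titles also carry the letters P1, which the labels do not explain. Each tissue's arrays repeat a single pool, and the p-values below therefore measure array-to-array spread, which may be technical, and not the spread between animals. Tissue, age and possibly strain differ together and cannot be told apart.

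The inner mitochondrial membrane is closed to most metabolites, and the Slc25a proteins carry nucleotides, phosphate, amino acids, carboxylates, cofactors and iron across it, while the Vdac pores let small solutes through the outer membrane. Nearly all mitochondrial proteins are made in the cytosol and enter through the TOM complex of the outer membrane. Those with a cleavable presequence then go to the TIM23 complex and its motor, and the carriers themselves go by way of small chaperones of the intermembrane space to the TIM22 complex. Mitofusins and Opa1 fuse mitochondria, and Dnm1l with its receptors divides them. Photoreceptors are known for a dense packing of mitochondria in the inner segment, whereas newborn cortex holds dividing progenitors and young neurons.

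As deposited, array medians of intensity ran from 836 to 987 for retina and from 1255 to 1341 for cortex, so the arrays were quantile-normalized on the log2 scale before testing. All values below are log2 intensities after that step and all differences are retina minus cortex. A gene was called when limma's Benjamini-Hochberg adjusted p over all 33012 probes fell below 0.05 and its tissues stood 2-fold or more apart. The tissues matched their labels: all 7 photoreceptor markers were called higher in retina, with a summed level (log2 of the list's added intensities) of 21.94 to 21.99 in retina and 12.24 to 12.81 in cortex, and all 5 cortical neuron markers were called lower (14.17 to 14.40 in retina, 19.34 to 19.41 in cortex). The 5 markers of dividing and immature cells were all lower in retina (11.04 to 11.46 in retina, 16.86 to 17.06 in cortex). Of the other lists, the 4 pigment epithelium markers were all higher (18.53 to 18.96 in retina, 15.22 to 15.37 in cortex). Of 4 lens markers, 2 were higher and none lower (15.77 to 16.05 and 11.02 to 11.62). Of 3 Müller glia and astrocyte markers, 2 were called higher and none called lower (20.57 to 20.70 and 18.08 to 18.23). The third, Slc1a3, was lower on every retina array but short of 2-fold (-0.84, SE 0.066, adjusted p = 8.72e-09). Glul, at 20.27 in retina and 17.82 in cortex, makes up most of the Müller glia sum. Rlbp1 is in both the pigment epithelium and the Müller glia lists. At 18.40 in retina and 15.25 in cortex, it makes up most of the pigment epithelium sum. Of 4 erythroid markers 2 were lower and none higher (15.04 to 15.33 and 16.93 to 17.30), of 5 muscle markers 1 was higher and 1 lower (13.31 to 13.49 and 14.11 to 14.34), and of 4 brown fat and liver markers none was called (11.38 to 12.01 and 11.56 to 11.88). The part of these cell types in the differences below was not tested, and in bulk RNA fewer cells of a type and less RNA per cell cannot be told apart.

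No detection flags were used, so dim signal was judged against 846 probes named for olfactory receptors, whose 95th percentile was 10.97 in retina and 11.05 in cortex. Of the 5 muscle markers, 4 lay below this mark in both tissues, among them Ckm, the 1 called higher (10.58 in retina, 9.50 in cortex). The same held for 2 of 4 lens, 2 of 4 erythroid and 3 of 4 brown fat and liver markers. Of the 64 genes, 13 lay below this mark in both tissues. They are Slc25a13, Slc25a15, Slc25a21, Slc25a24, Slc25a31, Slc25a37, Slc25a41, Slc25a42, Slc25a45, Slc25a48, Slc25a51, Timmdc1 and Mtfr2. Their single differences are given without weight, but these genes do count in the totals and medians of the 64 and of the role groups. They are 4 of 8 genes in the adenine nucleotide and phosphate group, 3 of 9 in the amino acid group and 2 of 9 in the cofactor group. Their median SD over 5 arrays was 0.554 in retina and 0.501 in cortex, against 0.123 in retina and 0.0924 in cortex for the other 51.

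In all, 9 of the 64 genes were called higher in retina and 4 lower. Slc25a24 and Slc25a51, among the lower, were dim in both tissues, and without the dim genes 9 were higher and 2 lower. The 13 called genes make up 20.3% of the 64, where 25.4% of all probes were called (12.1% higher and 13.3% lower) and 29% of all genes at 1 probe each (14.2% higher and 14.7% lower). Among the 51 genes above the olfactory receptor mark in at least 1 tissue, 11 were called (21.6%), where the share was 38% over the 8280 genes that met the same condition. In 38 of the 64 genes (59.4%) the arrays of the tissues did not overlap, where the same held for 40.5% of all probes and 50.3% of all genes at 1 probe each. Above the olfactory receptor mark this was 36 of the 51 (70.6%), against 75.9% of the 8280 genes. The adjusted p was under 0.05 in 43 of the 64 (67.2%, of which 25 had a positive and 18 a negative difference). It was so for 47.6% of all probes (22.5% positive and 25% negative) and 57.8% of genes. Above the mark it was under 0.05 in 41 of the 51 (80.4%), against 83% of the 8280 genes. Of the 43, 30 were under 2-fold. The median difference was 0.14 over the 64 genes and 0.00 over all genes, and the median absolute difference was 0.54 and 0.56. Only 5 genes, Slc25a35, Slc25a33, Mtfr1, Slc25a1 and Timm44, differed by 4-fold or more.

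The direction of the small differences depended on the scaling. Without normalization the median of all probes moved to -0.41, and 6 of the 64 genes were called higher and 13 lower (2474 and 7621 over all probes, against 3987 and 4392 after normalization). The sign of 15 uncalled genes turned from positive to negative there (Fis1, Immt, Mfn1, Mfn2, Mtfr2, Oxa1l, Slc25a3, Slc25a12, Slc25a16, Slc25a26, Timm8b, Timm17b, Timm29, Tomm6 and Tomm7). None of the 13 called genes changed sign under any setting tried.

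**Figure D1:**
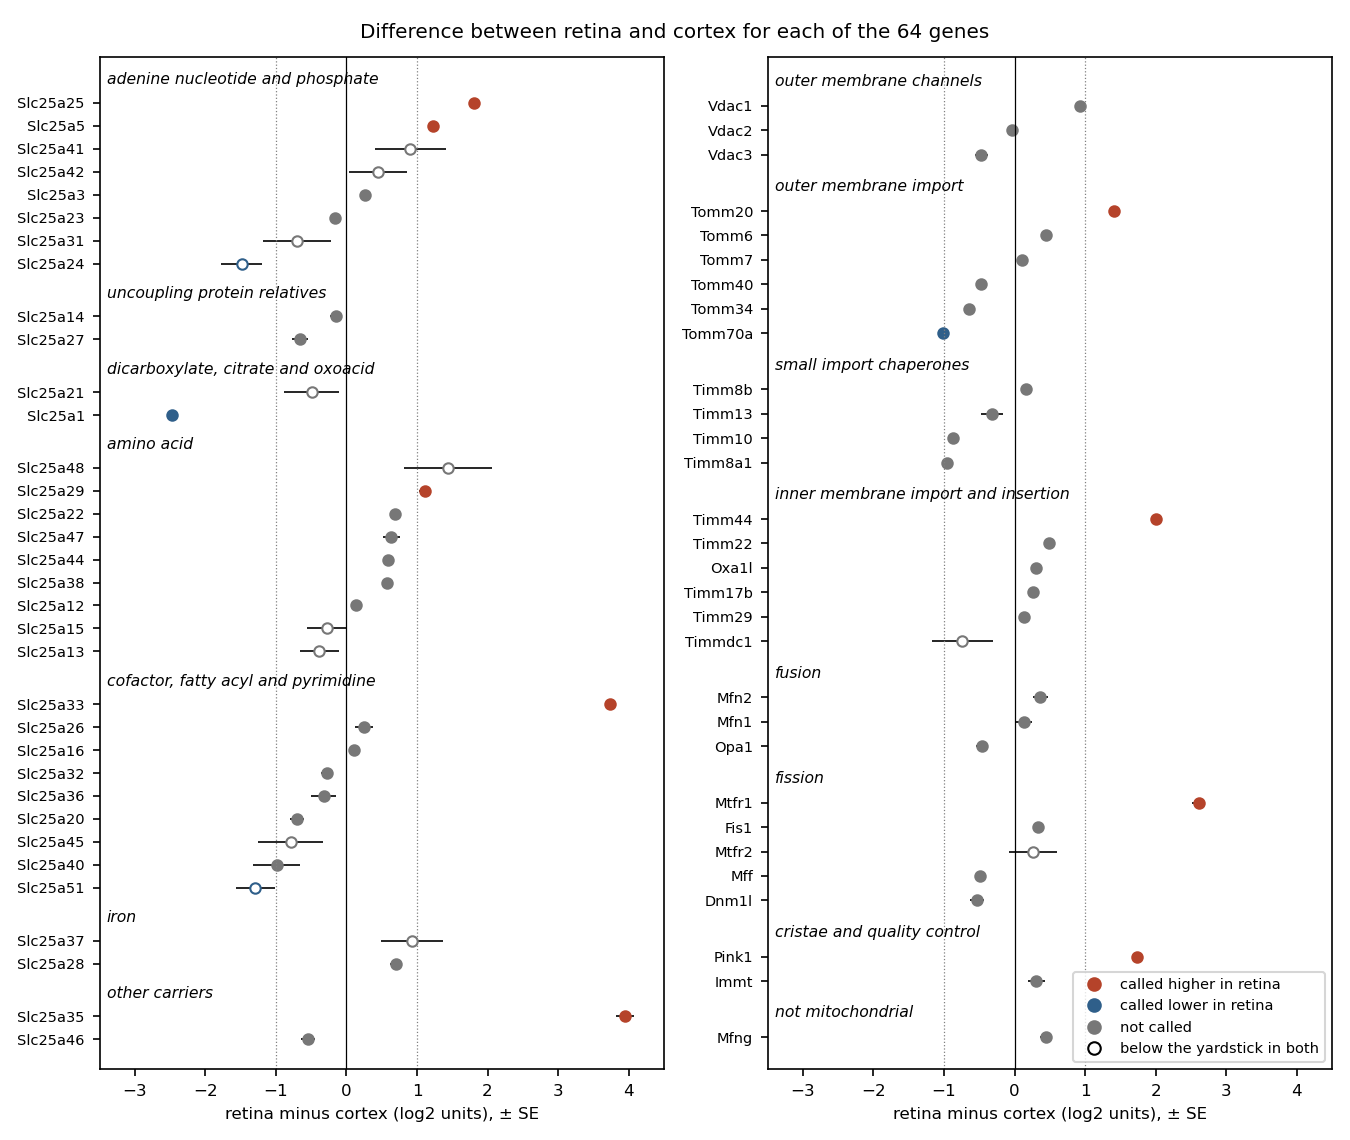
Each point is 1 of the 64 genes, grouped by role, at its retina minus cortex difference in log2 units (horizontal axis) with the limma SE as a bar. Filled red or blue marks called higher or lower in retina, open symbols mark genes below the olfactory receptor mark in both tissues, and dotted lines mark 2-fold. Most points lie between the dotted lines, Slc25a35 (3.95) and Slc25a33 (3.73) stand farthest to the right and Slc25a1 (-2.48) farthest to the left.

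The promoter windows of 5 called genes are shown because they carry the main contrasts of the data: the largest difference toward retina and toward cortex for which the RefSeq table (build GRCm38.p6) holds a window (Slc25a33 and Slc25a1), the 2 import receptors called in opposite directions (Tomm20 and Tomm70a), and the import motor gene Timm44. Each runs 5′ to 3′ on the gene's strand from 250 bases before the transcript start to 50 bases after it, and capitals mark matches to the motifs described after the sequences.
Slc25a33 (chr4:149774218-149774517, minus strand): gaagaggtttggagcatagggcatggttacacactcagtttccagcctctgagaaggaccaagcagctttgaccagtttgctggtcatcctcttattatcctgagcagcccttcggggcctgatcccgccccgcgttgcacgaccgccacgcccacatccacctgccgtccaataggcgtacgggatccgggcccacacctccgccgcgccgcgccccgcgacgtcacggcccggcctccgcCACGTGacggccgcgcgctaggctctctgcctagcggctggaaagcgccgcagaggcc
Slc25a1 (chr16:17928170-17928469, minus strand): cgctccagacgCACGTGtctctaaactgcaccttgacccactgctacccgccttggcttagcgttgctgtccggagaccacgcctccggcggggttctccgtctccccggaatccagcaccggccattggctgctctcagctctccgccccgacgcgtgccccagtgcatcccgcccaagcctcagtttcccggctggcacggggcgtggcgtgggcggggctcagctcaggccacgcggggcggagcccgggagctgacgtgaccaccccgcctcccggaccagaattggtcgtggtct
Timm44 (chr8:4275856-4276155, minus strand): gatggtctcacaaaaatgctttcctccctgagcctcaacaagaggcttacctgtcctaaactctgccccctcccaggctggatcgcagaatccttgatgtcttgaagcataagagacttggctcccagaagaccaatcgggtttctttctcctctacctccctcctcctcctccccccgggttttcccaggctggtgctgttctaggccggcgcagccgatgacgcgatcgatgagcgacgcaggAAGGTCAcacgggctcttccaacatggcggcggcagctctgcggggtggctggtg
Tomm20 (chr8:126945872-126946171, minus strand): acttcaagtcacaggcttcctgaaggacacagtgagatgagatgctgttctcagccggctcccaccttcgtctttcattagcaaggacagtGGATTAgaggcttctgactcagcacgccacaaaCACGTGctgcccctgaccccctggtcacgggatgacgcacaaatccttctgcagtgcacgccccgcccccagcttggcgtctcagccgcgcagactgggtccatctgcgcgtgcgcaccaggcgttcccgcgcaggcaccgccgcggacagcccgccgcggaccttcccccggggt
Tomm70a (chr16:57121464-57121763, plus strand): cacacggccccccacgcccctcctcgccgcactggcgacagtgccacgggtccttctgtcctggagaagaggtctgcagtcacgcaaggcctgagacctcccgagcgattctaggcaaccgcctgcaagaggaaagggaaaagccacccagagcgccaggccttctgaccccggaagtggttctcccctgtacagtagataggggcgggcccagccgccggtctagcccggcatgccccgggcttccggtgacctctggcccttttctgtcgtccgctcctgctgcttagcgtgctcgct

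Of the 64 genes, 50 had a window in that table, with 67 windows in all, since a gene can have several. The windows were searched on both strands for CACGTG (the E-box read by Myc, Usf and clock factors, its own reverse complement), AAGGTCA (the core of the estrogen-related receptor site), GCATGCGC (part of the Nrf1 site) and TAATCC (the core read by Crx and Otx2), and no marked matches overlapped. CACGTG stood in 11 of the 67 windows (16.4%) and in 7.15% of all 32851 windows. Its called genes were Slc25a33, where it begins 8 bases before the start, Slc25a1 and Tomm20. The uncalled Slc25a13, Slc25a14, Slc25a15, Slc25a31, Slc25a36, Timm10 and Timm8a1 also had it. AAGGTCA stood in 3 windows (4.48%, against 4.72% of all), Timm8b, Vdac1 and Timm44, where it begins 5 bases before the start. GCATGCGC stood in 4 (5.97%, against 2.71% of all) and TAATCC in 3 (4.48%, against 7.06% of all), of which Tomm20 is on the opposite strand. None of the 4 motifs stood in the Tomm70a window. These are matches of letters, and base composition was not taken into account.

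The carriers of adenine nucleotides and phosphate feed ATP synthesis. Of 8 genes, 2 were called higher in retina, 1 lower and 5 not, with a median of 0.36. Slc25a5, an ADP/ATP translocase that exchanges matrix ATP for cytosolic ADP, was at 19.18, 19.13, 19.05, 18.88 and 19.04 in retina and at 18.01, 17.78, 17.81, 17.85 and 17.70 in cortex. The tissues did not overlap, and the difference was 1.22 (SE 0.068, 2.34-fold, adjusted p = 9.07e-11), although without normalization it was 0.64 and under 2-fold. Whether its probe also reads the closely related Slc25a4, which is not analysed here, was not tested. Slc25a3, the phosphate carrier, was at 16.27 ± 0.19 on the retina arrays and 16.00 ± 0.11 on the cortex arrays (SD, n = 5), with overlapping arrays and a sign that turned without normalization.

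The ATP-Mg/phosphate carriers, which load the matrix with adenine nucleotides, did not move together. Slc25a25 was at 13.69, 13.79, 13.59, 13.74 and 13.70 in retina and at 11.98, 12.03, 12.01, 11.62 and 11.82 in cortex. Every retina array was above every cortex array, by 1.81 on average (SE 0.084, 3.52-fold, adjusted p = 7.54e-12). Its relative Slc25a23 was at 15.13 ± 0.07 on the retina arrays and 15.29 ± 0.05 on the cortex arrays (SD, n = 5), a difference of -0.16. Slc25a24 was called lower, at 8.88 ± 0.46 on the retina arrays and 10.36 ± 0.35 on the cortex arrays (-1.49, SE 0.29, n = 5 each), but from signal below the olfactory receptor mark in both tissues. Slc25a41 was also dim and not called, though it passed 2-fold and the test without retina replicate 5 (1.31). Slc25a31 and Slc25a42, which are in the adenine nucleotide group but are not ATP-Mg/phosphate carriers, were dim and not called too.

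The 2 measured relatives of the uncoupling proteins, both known from brain, were not called. Slc25a27 was at 11.60, 11.35, 11.64, 11.30 and 11.17 in retina and at 11.97, 11.95, 12.09, 12.09 and 12.23 in cortex. The tissues did not overlap (-0.65, SE 0.11, adjusted p = 0.00012), and without normalization the difference was -1.10 and was called lower. Slc25a14 was at 13.35 ± 0.20 on the retina arrays and 13.50 ± 0.05 on the cortex arrays (SD, n = 5), with overlapping arrays and a sign that turned with median centring.

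Slc25a1, the citrate carrier, whose export of citrate feeds fatty acid and sterol synthesis in the cytosol, was the most strongly lower gene of the 64. It was at 12.36, 12.65, 12.76, 12.74 and 12.63 in retina and at 15.03, 15.09, 15.11, 15.14 and 15.16 in cortex. The arrays of the tissues lay far apart, with a difference of -2.48 (SE 0.070, 0.179-fold, adjusted p = 1.11e-14). The other member of the carboxylate group, the oxodicarboxylate carrier gene Slc25a21, was dim in both tissues (8.05 in retina, 8.54 in cortex).

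Of 9 carriers placed in the amino acid group, 1 was called higher, none lower and 8 not called, with a median of 0.59. Slc25a29, a carrier of basic amino acids, was at 13.76, 13.84, 13.56, 13.68 and 13.56 in retina and at 12.69, 12.47, 12.81, 12.42 and 12.47 in cortex. Every retina array was the higher (1.11, SE 0.085, 2.15-fold, adjusted p = 6.46e-09), but without normalization the difference was 0.72. Another 4 had non-overlapping tissues under 2-fold, so 5 of the 9 did not overlap, against 50.3% of all genes at 1 probe each. The glutamate carrier gene Slc25a22 was at 14.99 ± 0.10 on the retina arrays and 14.30 ± 0.09 on the cortex arrays (SD, n = 5, difference 0.68). Slc25a44, a branched-chain amino acid carrier gene, was at 0.59, and Slc25a38, whose glycine carrier serves heme synthesis, was at 0.58. Slc25a47 was at 0.64. Without normalization Slc25a22 was at 0.30. Slc25a44 was then at 0.21 (adjusted p = 0.0691), Slc25a38 at 0.19 (adjusted p = 0.0924) and Slc25a47 at 0.19 (adjusted p = 0.263).

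Slc25a12, the aspartate/glutamate carrier that neurons and muscle use in the malate-aspartate shuttle, was at 16.90, 17.13, 16.89, 16.97 and 17.11 in retina and at 16.81, 16.88, 16.87, 16.80 and 16.94 in cortex. The tissues overlapped (0.14, SE 0.057, adjusted p = 0.0588). Its relative Slc25a13 and the ornithine carrier gene Slc25a15 were dim in both tissues. Slc25a48 was also below the mark on average and spread widely in retina, at 8.73, 9.54, 8.49, 7.26 and 11.98, against 7.36 to 8.05 in cortex, and its difference of 1.44 (SE 0.63) was not called. It was called without retina replicate 4 (1.93) and with median centring (1.62).

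Of 9 carriers of cofactors, fatty acyl groups and pyrimidine nucleotides, 1 was called higher, 1 lower and 7 not, with a median of -0.32. Slc25a33, a pyrimidine nucleotide carrier that supplies the matrix for mitochondrial DNA and RNA synthesis, was at 16.87, 16.96, 16.79, 16.73 and 16.91 in retina and at 13.12, 13.11, 13.10, 13.09 and 13.18 in cortex. It had the smallest adjusted p of the 64 genes (difference 3.73, SE 0.050, 13.3-fold, adjusted p = 1.38e-18). Its relative Slc25a36 was at 11.31, 10.62, 10.60, 10.33 and 10.89 in retina and at 11.07, 11.01, 11.04, 11.11 and 11.12 in cortex, which overlap (-0.32, SE 0.18). A second probe of this gene gave -0.73 (SE 0.17, adjusted p = 0.00181).

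Slc25a20, which carries acylcarnitines for fatty acid oxidation, was at 11.74, 12.01, 12.19, 12.27 and 12.06 in retina and at 12.64, 12.68, 12.80, 12.86 and 12.78 in cortex. All retina arrays were the lower (-0.70, SE 0.099, adjusted p = 1.12e-05), short of 2-fold, and without normalization the difference was -1.10 and was called lower. Slc25a40, a relative of the glutathione carrier, was at 8.59, 10.95, 10.62, 10.28 and 10.42 in retina and at 11.01, 11.13, 11.19, 11.18 and 11.31 in cortex. The tissues did not overlap, with 1 retina array far below the rest. Its retina mean of 10.17 was below the olfactory receptor mark. The difference of -0.99 (SE 0.33) just missed 2-fold and passed it when any of retina replicates 2 to 5 (-1.18, -1.10, -1.01 and -1.05) or cortex replicate 1 (-1.03) was left out. Without retina replicate 1, the array at 8.59, it was -0.59, and without normalization it was -1.45. Slc25a51, an NAD carrier gene, was called lower (-1.29, SE 0.28) from signal below the mark in both tissues (8.92 in retina, 10.21 in cortex), and with an offset before the log its difference was -0.95. The folate and FAD carrier gene Slc25a32 was at -0.27, and Slc25a16 (0.11) and the S-adenosylmethionine carrier gene Slc25a26 (0.25) turned sign without normalization.

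Neither iron carrier was called. Slc25a28 (mitoferrin 2) was at 16.40, 16.19, 15.98, 16.24 and 16.23 in retina and at 15.69, 15.52, 15.54, 15.35 and 15.47 in cortex. The tissues did not overlap (0.70, SE 0.073, 1.62-fold, adjusted p = 3.25e-07). Slc25a37 (mitoferrin 1), best known from developing red cells, was at 9.51, 8.79, 9.80, 10.21 and 8.72 in retina and at 7.58, 9.49, 7.97, 7.93 and 9.40 in cortex. Both its probes were dim and overlapped, each with a difference of 0.93, and the one used was called without cortex replicate 2 (1.18) or 5 (1.15).

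Slc25a35, a carrier whose substrate is not stated here, had the largest difference of the 64 genes after quantile normalization, although with an offset before the log Slc25a33 (3.69) was ahead of it (3.60). It was at 13.80, 13.72, 13.56, 13.79 and 13.69 in retina and at 9.46, 9.56, 10.14, 9.93 and 9.72 in cortex. The cortex arrays lay below the olfactory receptor mark, so the fold of 15.5 (difference 3.95, SE 0.13, adjusted p = 6.81e-14) rests on dim signal on that side. Slc25a46, which encodes a carrier-like protein of the outer membrane, was at 12.63 ± 0.24 on the retina arrays and 13.17 ± 0.08 on the cortex arrays (SD, n = 5), a difference of -0.54 without overlap.

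**Figure D2:**
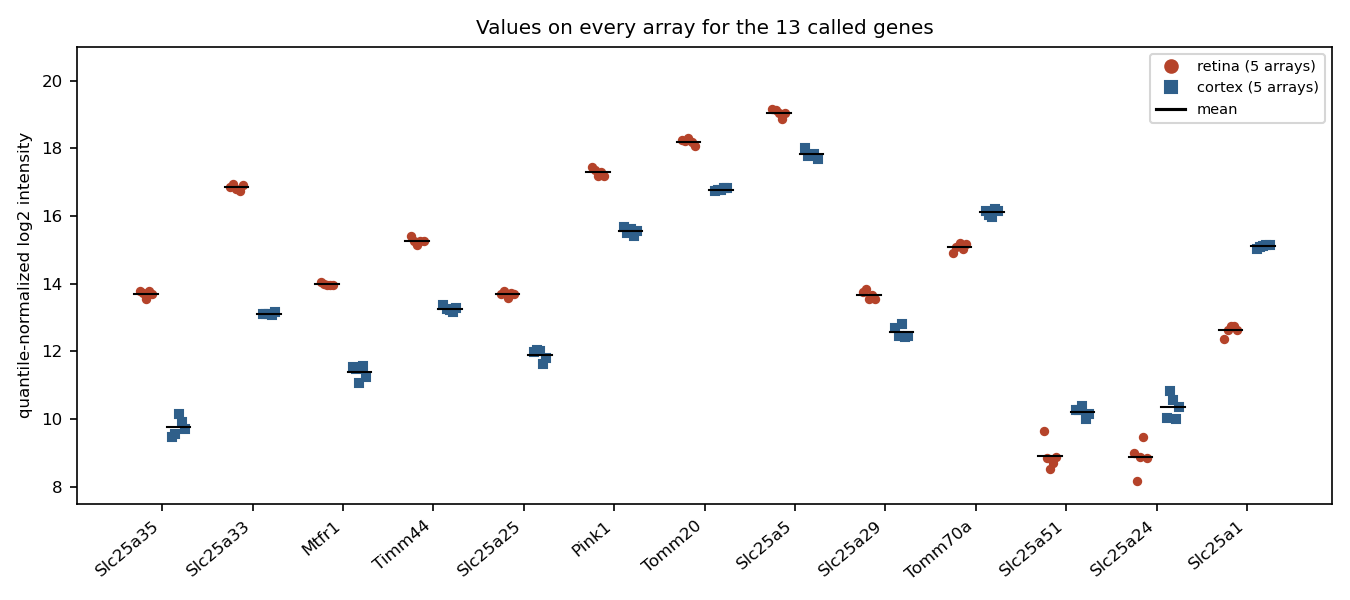
Quantile-normalized log2 intensity (vertical axis) on each of 5 retina and 5 cortex arrays for the 13 called genes, with the mean as a bar. The tissues do not overlap in any of the 13, which a call made on these same values favours. Slc25a51 and Slc25a24 are the 2 whose points all lie at the bottom of the range, below 11.

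The 3 Vdac genes encode the pores of the outer membrane and gave 3 different differences, none called. Vdac1 was at 17.93, 17.91, 17.83, 17.86 and 17.82 in retina and at 17.00, 17.03, 17.05, 16.75 and 16.88 in cortex. All retina arrays were above all cortex arrays, by 0.93 (SE 0.059, 1.90-fold, adjusted p = 4.82e-10), and with median centring the difference was 1.02 and passed 2-fold. Tested against 1.5-fold, Vdac1 was called higher. Vdac2 was at 17.11, 17.11, 17.25, 17.21 and 17.18 in retina and at 17.15, 17.13, 17.22, 17.28 and 17.24 in cortex, which overlap (-0.03, SE 0.049). Vdac3 was at 17.75, 17.88, 18.42, 18.02 and 18.05 in retina and at 18.41, 18.56, 18.44, 18.48 and 18.58 in cortex. Retina replicate 3 alone reached the cortex range (-0.47, SE 0.095), and without normalization the difference was -1.07 and was called lower.

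In the TOM complex, the 2 precursor receptors were called in opposite directions. Tomm20, the receptor for presequences, was at 18.25, 18.21, 18.30, 18.18 and 18.06 in retina and at 16.73, 16.78, 16.76, 16.83 and 16.83 in cortex. Every retina array was the higher (1.41, SE 0.052, 2.67-fold, adjusted p = 3.17e-13), though without normalization the difference was 0.93. Tomm70a, the receptor for carriers and other hydrophobic precursors, was at 14.92, 15.09, 15.21, 15.04 and 15.19 in retina and at 16.14, 16.04, 15.99, 16.22 and 16.16 in cortex. Every retina array was the lower (-1.02, SE 0.061, 0.494-fold, adjusted p = 2.4e-10). That value sits at the 2-fold line and went under it without retina replicate 1 (-0.98), without cortex replicate 4 (-0.99) and with median centring (-0.86).

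The other 4 Tomm genes were not called. The pore gene Tomm40 was at 13.70 ± 0.09 on the retina arrays and 14.18 ± 0.09 on the cortex arrays (SD, n = 5), and Tomm34, a cytosolic co-chaperone of import, at 14.78 ± 0.19 on the retina arrays and 15.42 ± 0.09 on the cortex arrays. Both were lower on every retina array (-0.48 and -0.64), and Tomm34 was called lower without normalization (-1.02). The small subunit gene Tomm6 was at 17.83 ± 0.12 on the retina arrays and 17.39 ± 0.05 on the cortex arrays without overlap, and Tomm7 was at 17.09 ± 0.07 and 16.98 ± 0.06 with overlap. The sign of both turned without normalization.

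The small Tim chaperones escort carriers across the intermembrane space, and none of the 4 was called. Timm8a1 was at 14.89, 14.90, 14.89, 14.83 and 14.87 in retina and at 15.85, 15.93, 15.77, 15.81 and 15.81 in cortex. The tissues stood well apart, at just under 2-fold (-0.96, SE 0.044, adjusted p = 6.04e-12), and its second probe gave -0.62 (SE 0.086). Timm10 was at 13.64, 13.69, 13.55, 13.63 and 13.52 in retina and at 14.49, 14.55, 14.61, 14.32 and 14.41 in cortex, also without overlap (-0.87, SE 0.061, adjusted p = 1.79e-09). Without normalization both passed 2-fold (-1.34 for Timm8a1 and -1.26 for Timm10), and tested against 1.5-fold both were called lower. Timm13 was at 10.97 ± 0.21 on the retina arrays and 11.29 ± 0.25 on the cortex arrays (SD, n = 5). Timm8b was at 16.68 ± 0.07 on the retina arrays and 16.51 ± 0.07 on the cortex arrays, with overlap and a sign that turned without normalization.

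Of 6 genes of inner membrane import and insertion, 1 was called higher, none lower and 5 not, with a median of 0.28. Timm44, which tethers the import motor to the TIM23 channel, was at 15.42, 15.28, 15.14, 15.26 and 15.27 in retina and at 13.38, 13.27, 13.24, 13.17 and 13.28 in cortex. The groups were about 4-fold apart (2.01, SE 0.058, 4.02-fold, adjusted p = 1.64e-14). Timm17b, a subunit of the same channel, was at 13.93 ± 0.10 on the retina arrays and 13.67 ± 0.07 on the cortex arrays (SD, n = 5). Timm22, the channel of the carrier route, was at 15.22 ± 0.04 and 14.73 ± 0.14 (difference 0.49), and its partner Timm29 at 14.91 ± 0.16 and 14.78 ± 0.13. Without normalization the Timm22 difference was 0.11 (adjusted p = 0.277). The insertase gene Oxa1l was at 13.55 ± 0.09 and 13.24 ± 0.08. The signs of Timm17b, Timm29 and Oxa1l turned without normalization, and Timmdc1, a complex I assembly factor, was dim in both tissues, though called lower without normalization (-1.19).

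Fusion genes were close in the tissues, and none of 3 was called. Mfn1 was at 13.02, 13.16, 13.63, 13.61 and 13.31 in retina and at 13.15, 13.50, 13.07, 13.16 and 13.16 in cortex. Mfn2 was at 12.10, 11.86, 12.01, 12.27 and 11.96 in retina and at 11.58, 11.87, 11.50, 11.78 and 11.64 in cortex. The tissues overlapped in both mitofusin genes (0.14 and 0.37), and the sign of both turned without normalization. Opa1, the inner membrane fusion GTPase, was at 11.82, 12.05, 12.01, 11.87 and 12.13 in retina and at 12.34, 12.34, 12.48, 12.55 and 12.47 in cortex. It did not overlap (-0.46, SE 0.089), but its second probe gave 0.14 (SE 0.21).

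Among 5 fission genes, Mtfr1 was called higher and the other 4 were not called. Mtfr1, a fission regulator, was at 14.06, 13.99, 13.97, 13.97 and 13.98 in retina and at 11.54, 11.49, 11.06, 11.57 and 11.26 in cortex. Its retina arrays agreed within 0.1 log2 units and lay far above cortex (2.61, SE 0.094, 6.10-fold, adjusted p = 2.54e-13). The division GTPase Dnm1l was at 13.66, 13.99, 14.39, 13.99 and 13.83 in retina and at 14.51, 14.56, 14.39, 14.57 and 14.49 in cortex, with retina replicate 3 level with the lowest cortex array to 2 decimals (-0.53, SE 0.099). Its receptor gene Mff was at 16.65, 16.68, 17.02, 16.84 and 16.82 in retina and at 17.19, 17.38, 17.19, 17.31 and 17.39 in cortex. All retina arrays were the lower (-0.49, SE 0.068). Fis1, another outer membrane protein linked to fission, was at 17.33, 17.27, 17.29, 17.56 and 17.57 in retina and at 16.99, 17.06, 17.01, 17.16 and 17.16 in cortex. All retina arrays were the higher (0.33, SE 0.067), with a sign that turned without normalization.

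Pink1, the kinase that marks damaged mitochondria for removal, was called higher in retina. It was at 17.44, 17.36, 17.20, 17.30 and 17.19 in retina and at 15.68, 15.51, 15.62, 15.42 and 15.55 in cortex. The tissues did not overlap (1.74, SE 0.059, 3.35-fold, adjusted p = 1.29e-13). Immt (mitofilin), which holds cristae junctions, was at 15.47 ± 0.32 on the retina arrays and 15.16 ± 0.11 on the cortex arrays (SD, n = 5), overlapping and with a sign that turned without normalization. Mfng, outside the mitochondrion, was at 15.23 ± 0.18 on the retina arrays and 14.78 ± 0.12 on the cortex arrays and was not called. Its difference was 0.44, and 0.069 without normalization (adjusted p = 0.529).

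Related genes were compared within each array, which cancels any shift common to the array. For 14 pairs with both genes measured, the log2 difference between the genes was taken on each array and compared between tissues by an exact 2-sided permutation test over all ways of assigning the 10 arrays to groups of 5, with Benjamini-Hochberg adjustment over the 14 pairs. In 10 pairs the 5 retina values all lay on one side of the 5 cortex values. Each of these gave p = 0.00794, the smallest the exact test can give, and an adjusted p of 0.0111. For single genes, the tissues likewise did not overlap in 50.3% of all and 75.9% of those above the olfactory receptor mark. The share among other gene pairs was not computed, so the 10 pairs are not shown to be unusual. The differences within an array depend on the probes, and only their change between the tissues is compared. Slc25a33 minus Slc25a36 was at 5.56, 6.34, 6.19, 6.40 and 6.01 in retina and at 2.04, 2.10, 2.06, 1.98 and 2.05 in cortex (a difference of 4.05). The size of that gap is uncertain, since Slc25a36 averaged 10.75 in retina, below the olfactory receptor mark, and its probes gave different values.

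The Vdac genes also separated from each other. Vdac1 minus Vdac2 was at 0.82, 0.80, 0.58, 0.65 and 0.64 in retina and at -0.15, -0.10, -0.17, -0.54 and -0.36 in cortex (0.96). Vdac1 minus Vdac3 differed by 1.40 and Vdac2 minus Vdac3 by 0.44. Timm8a1 minus Timm8b was at -1.83, -1.78, -1.66, -1.90 and -1.83 in retina and at -0.76, -0.56, -0.79, -0.65 and -0.64 in cortex (-1.12). Of the fission pair, Mff minus Fis1 was at -0.68, -0.59, -0.27, -0.72 and -0.75 in retina and at 0.20, 0.32, 0.19, 0.16 and 0.23 in cortex (-0.82). Slc25a20 minus Slc25a29 (-1.81) and Slc25a27 minus Slc25a14 (-0.50) also passed.

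The remaining 2 of the 10 pairs, Slc25a23 minus Slc25a24 (1.33) and Slc25a24 minus Slc25a25 (-3.30), include the dim Slc25a24. The 4 pairs that did not pass were Slc25a12 with Slc25a13 (0.52, exact p = 0.159, adjusted 0.185), Slc25a28 with Slc25a37 (-0.23, exact p = 0.683), Mfn1 with Mfn2 (-0.23, exact p = 0.0952, adjusted 0.121) and Opa1 with Dnm1l (0.07, exact p = 0.603, adjusted 0.649). Slc25a13 and Slc25a37 were dim. Without retina replicate 3, the unadjusted exact p was 0.0397 for Slc25a12 with Slc25a13 (difference 0.78) and 0.0159 for Mfn1 with Mfn2 (difference -0.30).

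**Figure D3:**
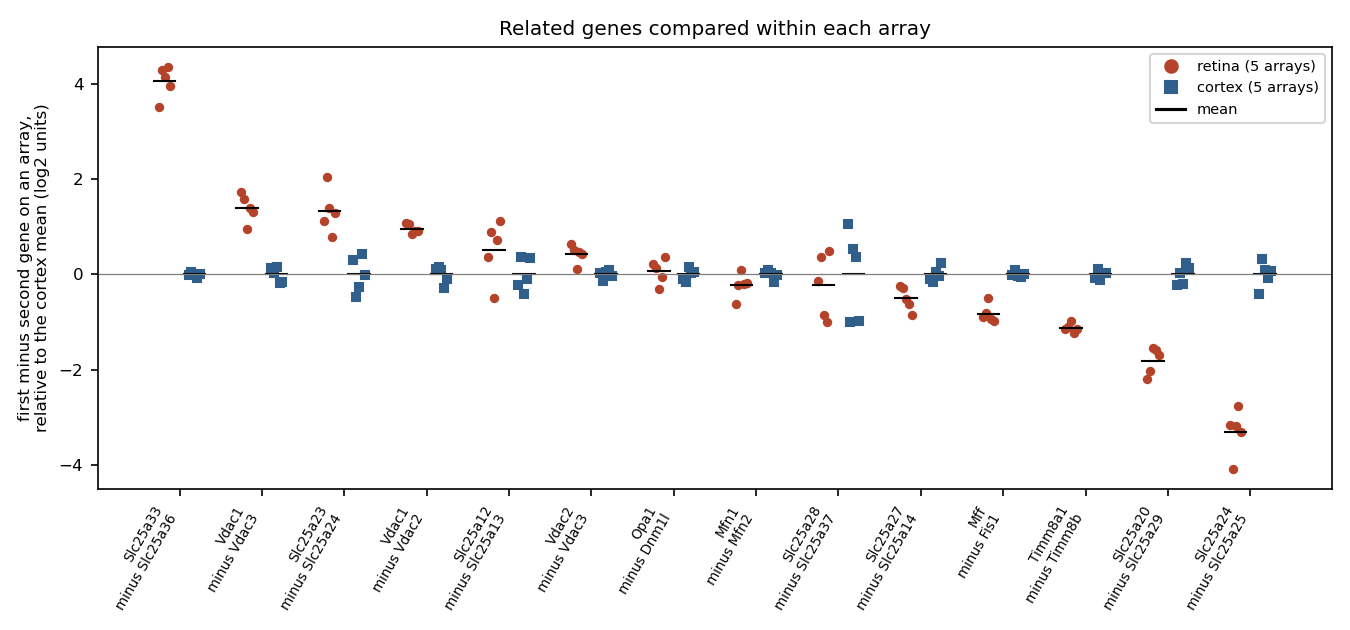
For 14 pairs of related genes, each point is the first minus the second gene on 1 array in log2 units, set relative to the mean of the cortex arrays (vertical axis), with the mean as a bar. Retina points lie clear of cortex points in 10 pairs, from Slc25a33 minus Slc25a36 (4.05) to Slc25a24 minus Slc25a25 (-3.30).

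Other genes of the same processes were taken from 4 lists, of which 59 were measured. Of these, 13 were called higher in retina, 2 lower and 44 not called, with a median of -0.10 and again 25.4% of all probes called (12.1% higher, 13.3% lower). At 1 probe each, 29% of all genes were called (14.2% higher, 14.7% lower). The share was 38% (19.3% higher, 18.7% lower) over the 8280 genes above the olfactory receptor mark in at least 1 tissue. Of the 59, 8 were below the mark in both tissues. Among 20 genes of import, processing and folding, Spg7, a subunit of the matrix AAA protease, was the single call (1.75, SE 0.058), and the list's median was -0.21. The motor and folding genes Hspa9 (-0.29), Hspd1 (-0.61) and Hspe1 (-0.60) were not called, nor was Pam16 (0.54), which sits with Timm44 at the import motor. Of 9 genes of carriers and inner membrane exchange, Mtch2, an outer membrane insertase, was higher (1.13, SE 0.079, and 0.74 without normalization), and Micu2, a gatekeeper of the calcium uniporter, and Sfxn1, a serine carrier, were lower (-2.02, SE 0.073, and -1.92, SE 0.057).

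Of 19 genes of dynamics, transport and quality control, 7 were higher, none lower and 12 not called, with a median of 0.38, where 29% of all genes at 1 probe each were called (14.2% higher). Over the 8280 genes above the olfactory receptor mark in at least 1 tissue, 38% were called (19.3% higher). Of the 7, Apoo (1.25) was below the olfactory receptor mark in both tissues with overlapping arrays. Apoo, Apool (1.00) and Fundc1 (1.06) were under 2-fold without normalization (0.78, 0.60 and 0.68). With an offset before the log, Apoo (0.87) and Apool (0.96) were under it too. Leaving out 1 array took Apool under 2-fold in 5 of 10 cases, Apoo without retina replicate 4 (0.98) and Fundc1 without retina replicate 3 (0.996). Apoo was not called when tested against 1.5-fold. Both Miro genes, which tether mitochondria to motor proteins, were called. Rhot2 was at 15.44, 15.52, 15.63, 15.44 and 15.51 in retina and at 12.75, 12.80, 12.76, 12.84 and 12.88 in cortex (2.70, SE 0.053, 6.51-fold). Rhot1 was at 15.94, 15.90, 16.05, 15.86 and 15.85 in retina and at 13.61, 13.72, 13.61, 13.68 and 13.71 in cortex (2.26, SE 0.050, 4.78-fold). The arrays of the tissues were far apart in both. Bnip3, a receptor for mitochondrial removal, and the motor adaptor gene Trak2 followed (1.76, SE 0.071, and 1.49, SE 0.086).

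Of 11 biogenesis regulators, 4 were higher, none lower and 7 not called, with a median of 0.92. All 11 were above the olfactory receptor mark in at least 1 tissue. Of the 8280 genes that met that condition, 38% were called (19.3% higher), and of all genes at 1 probe each, 29% (14.2% higher). Polg2, the accessory subunit of the mitochondrial DNA polymerase, was at 16.78, 16.53, 16.54, 16.58 and 16.44 in retina and at 12.68, 12.58, 12.48, 12.49 and 12.43 in cortex (4.04, SE 0.065, 16.5-fold). The coactivator gene Ppargc1b was at 15.40, 15.55, 15.66, 15.50 and 15.39 in retina and at 12.25, 12.07, 12.05, 12.23 and 12.18 in cortex (3.34, SE 0.066, 10.2-fold). Both stood clear of cortex on every array. Esrra, the receptor that reads AAGGTCA, and Gabpa were higher by 1.19 and 1.15, and both were under 2-fold without normalization (0.80 and 0.66), as was Gabpa without retina replicate 5 (0.99). Gabpa averaged 10.61 in cortex, below the olfactory receptor mark. Ppargc1a (0.92, SE 0.053) and Nrf1 (0.92, SE 0.086) were short of 2-fold, and Tfam, which packages mitochondrial DNA, was at -0.21.

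**Figure D4:**
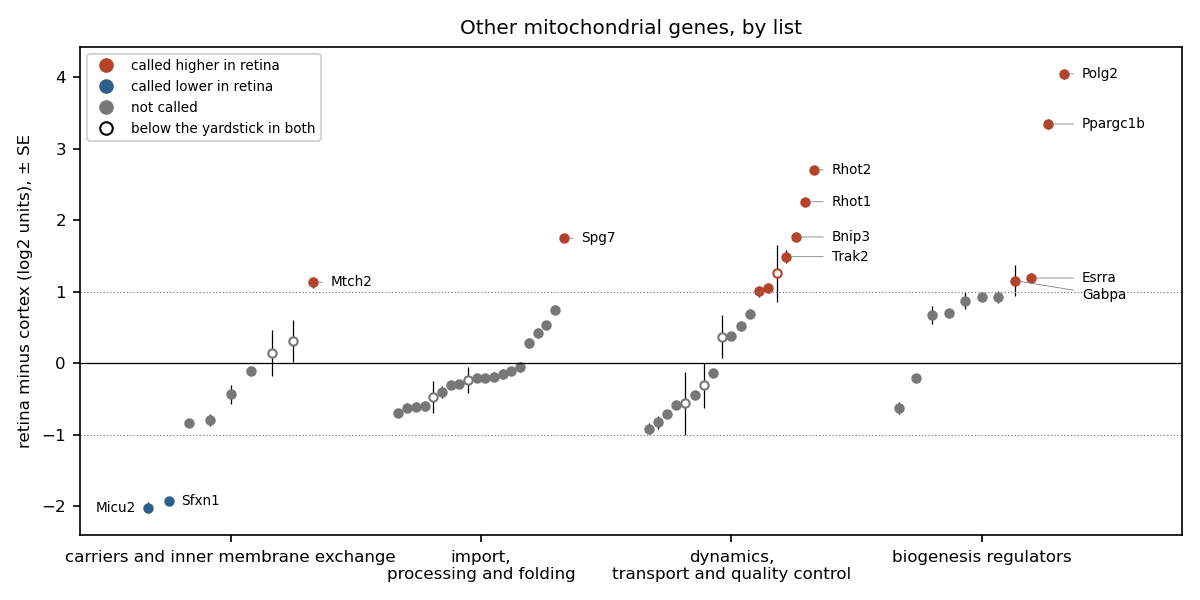
Retina minus cortex difference in log2 units with the limma SE (vertical axis) for 59 other mitochondrial genes in 4 lists (horizontal axis), with up to 4 called genes per list and direction named, open symbols for genes below the olfactory receptor mark in both tissues and dotted lines at 2-fold. Points of import, processing and folding stay between the lines except Spg7 (1.75), and Polg2 (4.04) and Ppargc1b (3.34) stand highest.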

How the data were processed

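Intensity values for 33012 probes on 10 arrays were used as deposited; all were above 0. Per the labels' protocols, each labelling took 1 µg of total RNA, with digoxigenin as the label and chemiluminescence as the readout. The authors' scanner software, background correction and normalization are not given in the sources used here. Values were put on the log2 scale and, because array medians spanned 0.682, quantile-normalized. The platform annotation gave names: 14411 probes had 1 symbol, 247 several and 18354 were not listed. All 64 genes matched a RefSeq entry by Entrez ID with the same symbol.

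The retina and cortex arrays entered a limma fit (version 3.58.1, R 4.3.3; lmFit, then eBayes with trend, and no further terms). Tests were 2-sided and p-values were adjusted over all probes by Benjamini-Hochberg. Fold changes are 2 to the power of the log2 difference. SE is limma's, after shrinkage. The code was tested on simulated data. For arrays, their number limits the precision. The genes, lists and pairs were chosen with earlier results of these data known. Values on every array were to be given for up to 3 called genes per role and direction (the largest differences, without overlap and with the brighter tissue above the median probe) and for genes of the related pairs. Genes of other lists were to be named where called, up to 4 per list and direction. Slc25a48, the array values of Slc25a40, and Apoo, Apool, Fundc1, Hspa9, Hspd1, Hspe1, Pam16, Ppargc1a, Nrf1 and Tfam were named after their values were seen. Alternatives were scaling, an offset, dim probes left out, no trend, other thresholds, all probes of a gene averaged, the replicate number as a block, and leaving out each array.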

Additional observations from a re-analysis of the deposited data

Results flagged for a closer look

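Of 130 sets of 5 arrays screened (each gene in each tissue, and the array medians), 5 held an array that stood apart from the other 4 by more than 0.71 of the set's range, and chance flags about 1 in 20 sets. Slc25a40 was at 8.59 on retina replicate 1 and at 10.28 to 10.95 on the others. Mfn1 was at 13.50 on cortex replicate 2 and at 13.07 to 13.16 on the others. Mtfr1 was at 14.06 on retina replicate 1 and at 13.97 to 13.99 on the others. Timm22 was at 15.28 on retina replicate 1 and at 15.19 to 15.21 on the others. Timm8b was at 16.55 on retina replicate 3 and at 16.68 to 16.73 on the others. Without retina replicate 1, the Slc25a40 difference was -0.59, against -0.99 with all arrays.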

How the results depend on the processing

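Without normalization, 13 of the 64 genes were called lower (4 with it, the dim Slc25a45 at -1.25 among those gained), the median of the 64 was -0.24, and of the other mitochondrial genes 7 were higher and 13 lower. The 15 genes whose sign turned there stood at -0.10 (Fis1), -0.075 (Immt), -0.25 (Mfn1), -0.076 (Mfn2), -0.12 (Mtfr2), -0.073 (Oxa1l), -0.28 (Slc25a12), -0.28 (Slc25a16), -0.23 (Slc25a26), -0.11 (Slc25a3), -0.13 (Timm17b), -0.24 (Timm29), -0.23 (Timm8b), -0.028 (Tomm6) and -0.31 (Tomm7). With median centring, the median of the 64 was 0.29, and Slc25a14 (0.0072) and Vdac2 (0.078) changed sign. With adjusted p alone, 15704 probes were called, 25 of the 64 genes with a positive and 18 with a negative difference, and 25 and 23 of the other mitochondrial genes. Tested against 1.5-fold, 10 of the 64 genes were higher and 6 lower, with Vdac1, Timm10 and Timm8a1 gained, and 7 of the other genes were lower. Leaving out 1 array at a time gave 9 to 10 of the 64 genes higher and 3 to 5 lower, a median of 0.13 to 0.19, and pair differences of 0.37 to 0.78 for Slc25a12 with Slc25a13, -0.30 to -0.13 for Mfn1 with Mfn2, and -0.48 to 0.04 for Slc25a28 with Slc25a37, the last positive only without cortex replicate 1. The replicate number as a block gave 8398 called probes, with 9 of the 64 higher and 4 lower, and changed no call among the 64. Same-numbered arrays of the tissues did not all deviate together (correlations from -0.05 to 0.10, against -0.12 to 0.13 for arrays of different number). With 5 arrays a tissue, this cannot show whether same-numbered arrays shared a run or batch. The cause of these changes was not tested. Dim signal limits the 13 genes below the olfactory receptor mark.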
